A study of Mus musculus with 6 samples.

Results

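The genes described here are 32 transcripts of the colonic epithelium, read in regulatory T cells (Tregs) that had been sorted from colon tumours. They were taken by gene symbol from a table of 19494 measured genes, and all 32 had 1 row on the array. By role they comprised 9 genes of keratins and cell junctions, 6 of goblet cells, 10 of absorptive cells, 4 transcription factors of the epithelium and 3 genes of mucosal proteins that both lineages make. The question of the study was how tumour-associated Tregs that carry GPR15, a homing receptor of colonic T cells, differ from those that do not. The gene group bears on which transcripts of neighbouring cells are read in such sorted fractions.

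All samples came from Foxp3-RFP x GPR15-GFP mice, in which red fluorescence reports the Treg factor Foxp3 and green fluorescence reports GPR15. Colorectal cancer had been induced in all of them by the mutagen azoxymethane (AOM) with colitis from dextran sulfate sodium (DSS), so no group was free of tumours. Lymphocytes were released from the tumorous lamina propria with collagenase, stained for CD4 and sorted as red cells into 3 samples labelled GPR15-GFP+ and 3 labelled GPR15-GFP-, called GPR15+ and GPR15- here. The sample titles carry the numbers 1, 5 and 6 in each fraction. The labels do not say whether a number is 1 mouse or a pool, nor the animals' age, and the spread behind each p-value is that between samples, which may be technical. From 2 to 10 ng of total RNA was labelled per sample for a 1-colour Affymetrix array.

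Values are log2 units as deposited, and a difference is always GPR15+ minus GPR15-. The number of arrays limits their precision. Over all rows, values of the arrays numbered 1 had an SD of 1.63, and those of the other 4 an SD of 1.74 to 1.87. Gpr15 itself lay lower in the samples labelled GPR15+, with a difference of -0.65 ± 0.22 (SE, limma adjusted p = 0.773). Its fractions did not overlap, and the difference was -0.28, -1.26 and -0.43 in numbers 1, 5 and 6. This goes against the labels, so each direction below rests on the labels alone. Of 8 T cell genes with values, among them Cd3d and Cd4, all 8 stood above the reference for dim genes described below on every array, and so did 5 of 6 further Treg genes. Ptprc, the pan-leukocyte gene for CD45, differed by 0.15 ± 0.22 (SE).

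The colonic epithelium is a single sheet of cells that lies against the lamina propria. Its absorptive cells carry microvilli and move salt and water, while its goblet cells secrete the mucus that keeps bacteria at a distance. Both lineages share keratin filaments, cadherins and claudins, and their identity is kept by factors such as the CDX homeobox proteins and the nuclear receptor HNF4A. T cells are not known for making mucus or the microvillus layer of absorptive cells, so these genes were taken as markers of epithelial material in a T cell sample.

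No epithelial gene passed the test. Of the 32, 26 lay lower in samples labelled GPR15+, against 59.2% of all genes, and their median difference was -0.21 against -0.06 for all genes. After adjustment over all genes limma called 0 of the 32 and 0 (0%) of the whole table, and the lowest adjusted p among the 32 was 0.773. At an unadjusted p under 0.05, 3 of the 32 lay lower (background 3.44%) and 0 lay higher (background 2.79%). The 3 were the absorptive gene Vil1, the goblet gene Zg16 and Phgr1. In the goblet group 6 of 6 genes lay below 0, and in the absorptive group 9 of 10. Among keratins and junctions 7 of 9 did, and among transcription factors 2 of 4. With 0 genes called, these values do not establish less epithelial material in GPR15+ samples. In bulk samples of this kind, fewer epithelial cells and less RNA per cell could not be told apart either. Of the sensory receptor genes, a dim reference described below, 72.8% also lay below 0, with a median of -0.11. For 28 of the 32 genes the 95% interval of the difference excluded a 2-fold lower value in GPR15+ samples, and for 31 it excluded a 2-fold higher one. Most of the table did likewise, with 18087 and 17180 of all 19494 genes.

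**Figure D1:**
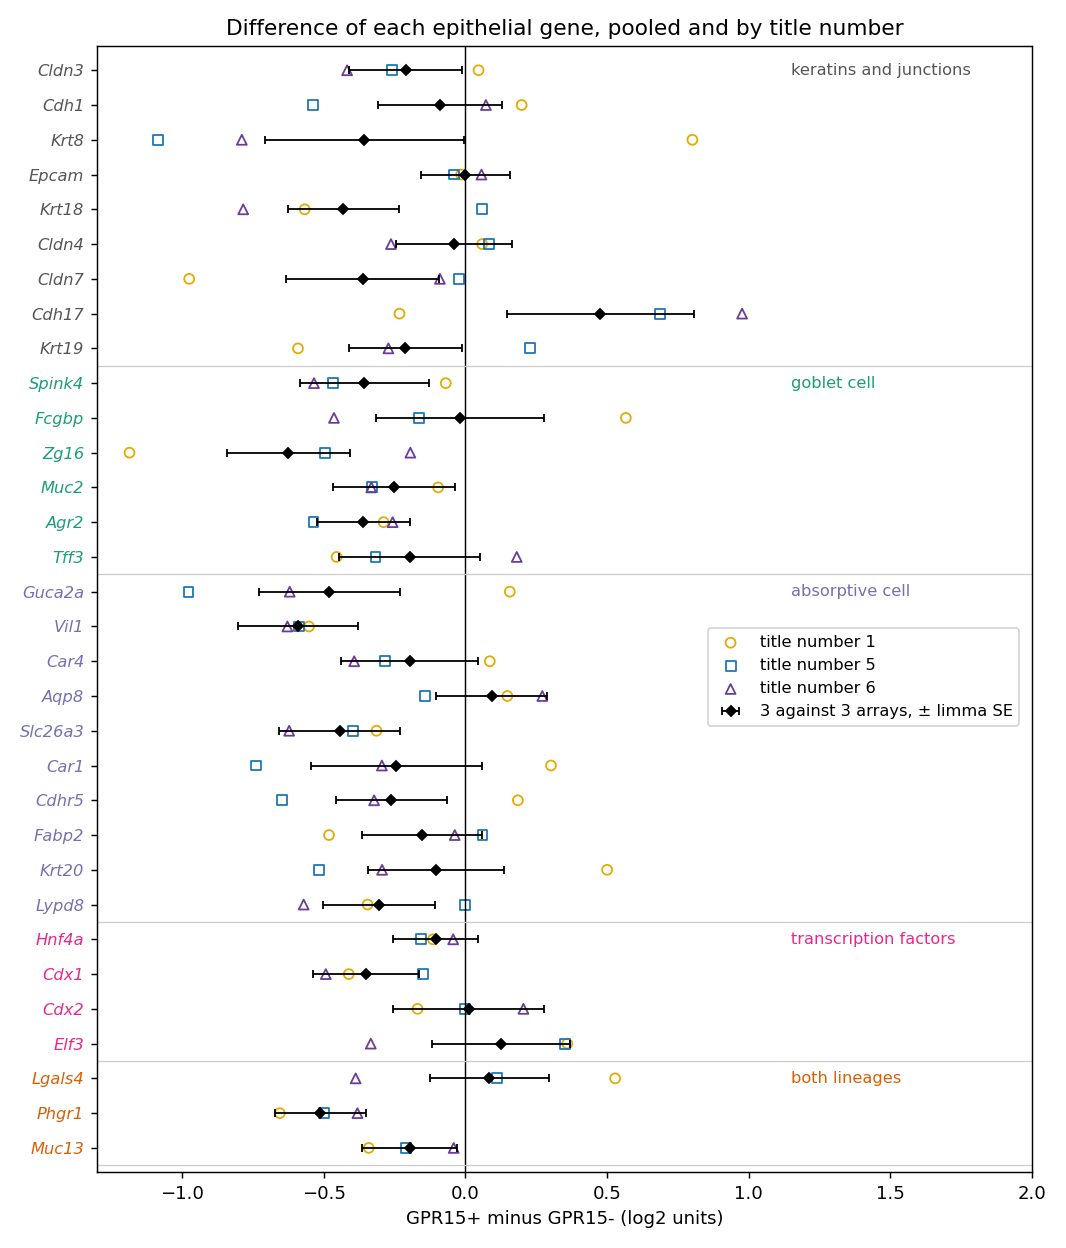
Difference GPR15+ minus GPR15- (x axis, log2 units) of each of the 32 epithelial genes (y axis, coloured by role). Black diamonds are the difference of 3 against 3 arrays with limma's SE, and open symbols are the difference within the samples of 1 title number. Diamonds lie below 0 for 26 of 32 genes, and the open symbols of a gene often lie on both sides of 0.

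How far these genes stood above dim signal was read against a reference. No detection calls were used here, so 1462 genes of olfactory, vomeronasal, taste and trace amine receptors, which immune cells are not known to use broadly, served as a reference. The 95th percentile of the reference lay between 6.24 and 6.86 on the 6 arrays. Of the 32 epithelial genes, 11 stood above it on all 6 arrays (background 39.6%), 11 on some and 10 on none (background 39.3%), shares close to those of all genes. The 11 were Cdh1, Cldn3, Muc2, Fcgbp, Spink4, Vil1, Car4, Aqp8, Guca2a, Lgals4 and Phgr1. Against the 99th percentile of the reference, 2 remained, Spink4 and Guca2a. Probes differ in brightness, so these counts describe the array and not the abundance of a transcript. RMA gives every row a positive value, so no marker is at 0.

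**Figure D2:**
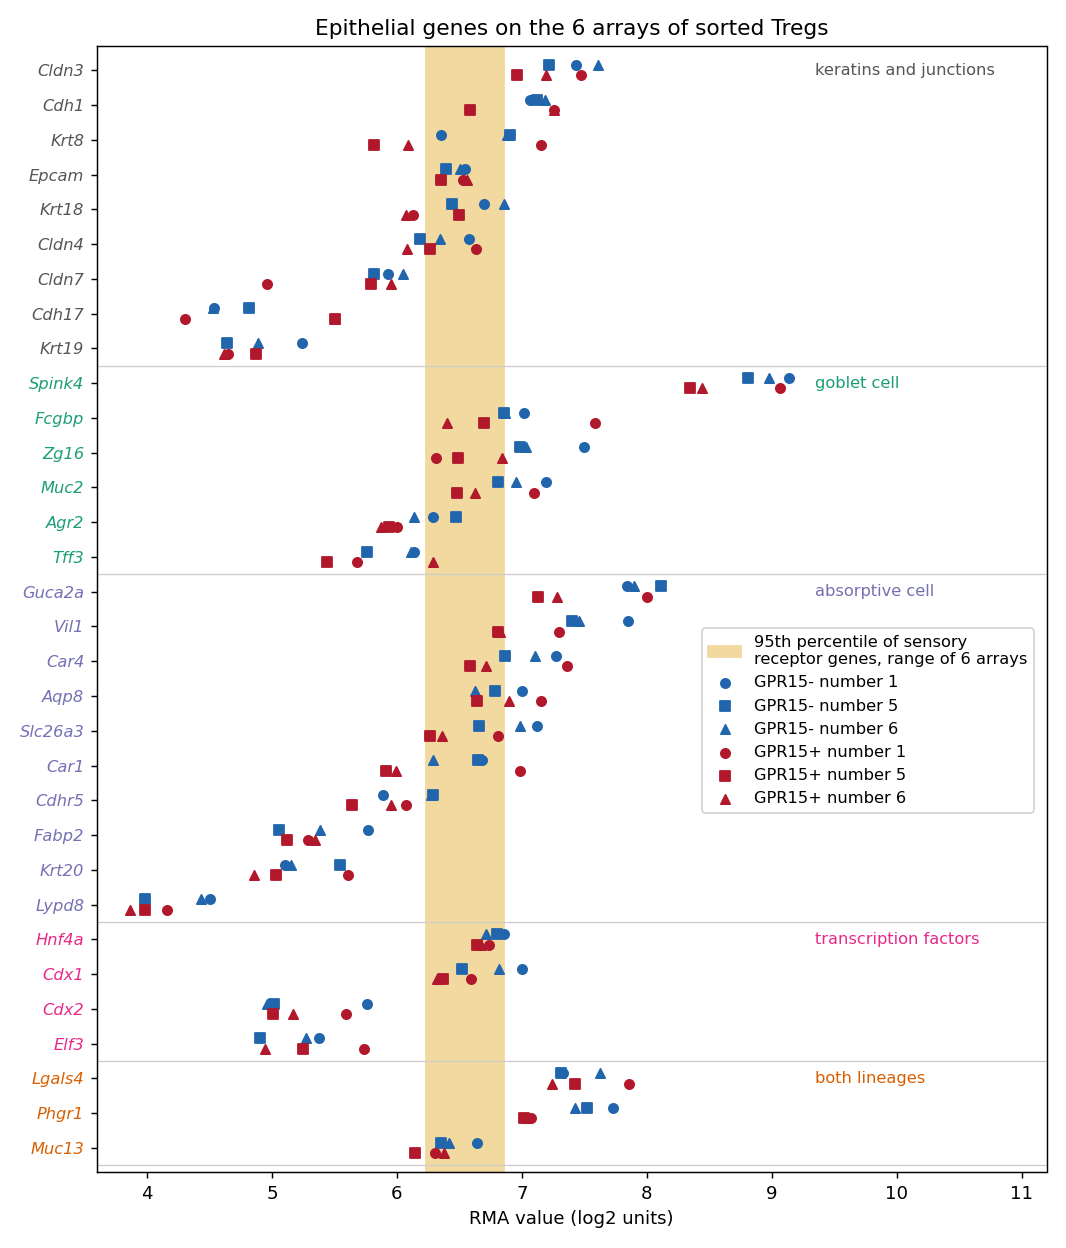
RMA value (x axis, log2 units) of each of the 32 epithelial genes (y axis, coloured by role) on the 6 arrays. Blue symbols are samples labelled GPR15-, red symbols samples labelled GPR15+, and shapes are title numbers, while the shaded band spans the 95th percentile of the sensory receptor genes from 6.24 to 6.86. Cldn3, Spink4, Guca2a, Lgals4 and Phgr1 lie to the right of the band on every array, and 10 genes never exceed the reference of their own array.

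The 3 samples of each fraction did not overlap for 4 genes, Agr2, Zg16, Vil1 and Phgr1, all lower in GPR15+ samples. That made 4 of 32 lower without overlap (background 9.17%) and 0 higher (background 4.12%). The promoters of 3 of them are shown so that the regulators in the list can be read against them, with that of Epcam, whose difference was 0.00, as a contrast. They are the 250 bases before the start, on the plus strand of GRCm38.p6, from RefSeq, in which Zg16 had no entry. The windows are chr1:74409134-74409383 for Vil1, chr2:118772524-118772773 for Phgr1, chr12:35992675-35992924 for Agr2 and chr17:87635729-87635978 for Epcam. Capitals mark matches on either strand to CNATAAA, letters bound by CDX factors, or CAAAGNNCA, letters bound by HNF4.
Vil1: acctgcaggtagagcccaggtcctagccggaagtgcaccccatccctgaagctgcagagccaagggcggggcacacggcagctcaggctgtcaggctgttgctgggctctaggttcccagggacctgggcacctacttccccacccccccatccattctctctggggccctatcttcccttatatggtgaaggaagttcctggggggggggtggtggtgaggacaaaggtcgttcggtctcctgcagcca
Phgr1: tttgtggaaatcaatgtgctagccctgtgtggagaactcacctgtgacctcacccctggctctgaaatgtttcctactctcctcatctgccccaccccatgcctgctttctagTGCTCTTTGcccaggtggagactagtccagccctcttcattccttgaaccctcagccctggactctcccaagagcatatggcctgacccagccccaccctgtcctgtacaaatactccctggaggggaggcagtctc
Agr2: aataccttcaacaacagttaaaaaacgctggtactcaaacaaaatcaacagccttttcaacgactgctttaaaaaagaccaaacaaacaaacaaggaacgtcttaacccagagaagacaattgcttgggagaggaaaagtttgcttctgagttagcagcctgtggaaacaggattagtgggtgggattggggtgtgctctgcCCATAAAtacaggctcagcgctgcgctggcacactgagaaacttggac
Epcam: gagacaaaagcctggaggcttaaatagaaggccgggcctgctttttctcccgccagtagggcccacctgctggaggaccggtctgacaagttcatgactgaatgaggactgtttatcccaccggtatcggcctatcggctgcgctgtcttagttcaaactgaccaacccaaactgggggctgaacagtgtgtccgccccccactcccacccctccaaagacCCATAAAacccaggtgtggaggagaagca
RefSeq windows were found for 24 of the 32 genes, 28 windows in all, each reaching from 250 bases before the start to 50 after it. The CDX letters were in 6 of the 28 (21.4%) against 10.9% of 32851 windows of all genes, and the HNF4 letters in 4 (14.3%) against 6.36%. Matches were in the windows of Agr2, Aqp8, Car4, Epcam, Fabp2 and Krt20 for CDX and of Fabp2, Muc13, Phgr1 and Slc26a3 for HNF4. In Krt20, and in Car4, where it lies after the start, the CDX match also holds TATAAA, the letters of a TATA box, and in Epcam it starts at position -29, where a TATA box would lie. The Vil1 window holds neither set of letters. A match is a description of letters, and genes with and without one were found on both sides of 0.

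Absorptive cell genes held the gene with the second largest difference below 0. Vil1, which encodes the actin-bundling protein villin of microvilli, lay at 7.85, 7.40 and 7.45 in the GPR15- samples numbered 1, 5 and 6. In the GPR15+ samples of the same numbers it lay at 7.30, 6.81 and 6.83. Every GPR15+ sample was thus below every GPR15- sample, and the difference by number was -0.55, -0.59 and -0.63. Pooled it was -0.59 ± 0.21 (SE), or 1.50-fold lower, and did not pass (limma adjusted p = 0.773).

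Other genes of the absorptive surface varied more between numbers. Slc26a3, the chloride and bicarbonate exchanger of the colon, lay at 7.13, 6.66 and 6.99 in GPR15- and at 6.81, 6.26 and 6.36 in GPR15+ samples. Its difference was -0.44 ± 0.21 (SE) and was below 0 in each number, although the fractions overlapped. Guca2a, which encodes the secreted peptide guanylin, lay at 7.85, 8.11 and 7.90 in GPR15- samples. In GPR15+ samples it lay at 8.00, 7.13 and 7.28, so the sample numbered 1 stood among the GPR15- samples and the other 2 below them. Car4, a membrane-bound carbonic anhydrase, lay at 7.28, 6.87 and 7.10 against 7.36, 6.58 and 6.71, again with the GPR15+ sample numbered 1 high. The water channel gene Aqp8, at 7.00, 6.79 and 6.62 against 7.15, 6.64 and 6.89, was the absorptive gene with a difference above 0 (0.09 ± 0.20 SE). Lypd8, a surface protein that holds flagellated bacteria off the epithelium, stayed below the reference throughout, at 4.50, 3.98 and 4.43 against 4.16, 3.98 and 3.86. Of the remaining absorptive genes, the microvillus protocadherin gene Cdhr5 differed by -0.26 and the cytosolic carbonic anhydrase gene Car1 by -0.24. Krt20, the keratin of mature surface cells, differed by -0.10 and the fatty acid binding protein gene Fabp2 by -0.15. None of these 10 genes passed, and the lowest adjusted p was 0.773 (limma).

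In the goblet group the values of a fraction also parted by number. Zg16, a lectin-like protein of mucus, lay at 7.50, 6.99 and 7.04 in GPR15- and at 6.31, 6.49 and 6.84 in GPR15+ samples. The fractions did not overlap, but the difference was -1.19 in number 1, -0.49 in number 5 and -0.19 in number 6. With -0.62 ± 0.22 (SE), or 1.54-fold lower, it had the largest difference below 0 of the 32 genes (limma adjusted p = 0.773). Agr2, an isomerase of the endoplasmic reticulum that mucin folding needs, lay at 6.29, 6.48 and 6.13 against 6.00, 5.94 and 5.88. The fractions did not overlap here either, at -0.36 ± 0.16 (SE), and Agr2 exceeded the reference on 1 array only.

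Spink4, a Kazal-type peptide of goblet cells, stood farthest above the reference. It lay at 9.14, 8.81 and 8.98 in GPR15- and at 9.07, 8.35 and 8.44 in GPR15+ samples, so that the GPR15+ samples numbered 5 and 6 were the low ones (-0.36 ± 0.23 SE). Muc2, the gel-forming mucin that makes up most of the mucus, lay at 7.20, 6.81 and 6.96 against 7.10, 6.48 and 6.62. The same 2 samples were the lowest, and the difference was -0.25 ± 0.21 (SE). Fcgbp, a mucus protein bound to Muc2, lay at 7.02, 6.86 and 6.87 against 7.58, 6.70 and 6.40. Its GPR15+ sample numbered 1 was the highest of the 6, and the difference of -0.02 turned to 0.05 when arrays were centred on their medians and to 0.07 with the intensity trend removed. Tff3, a trefoil peptide of mucus, was below the reference on every array and differed by -0.20 ± 0.25 (SE).

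Keratins and junction proteins had no gene whose fractions were apart. Epcam, the adhesion molecule by which epithelial cells are usually sorted, lay at 6.54, 6.39 and 6.51 in GPR15- and at 6.53, 6.35 and 6.56 in GPR15+ samples. Its difference was 0.00 with a 95% interval from -0.36 to 0.36, and it exceeded the reference on 2 of 6 arrays. Cdh1, which encodes E-cadherin, lay at 7.06, 7.12 and 7.19 against 7.26, 6.58 and 7.26, with 1 low array, the GPR15+ sample numbered 5. Cldn3, a claudin of tight junctions, lay at 7.43, 7.22 and 7.61 against 7.48, 6.96 and 7.20 (-0.21 ± 0.20 SE). The fractions overlapped in all 3.

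Krt18 lay at 6.70, 6.44 and 6.86 against 6.13, 6.50 and 6.07 (-0.43 ± 0.20 SE), and its filament partner Krt8 at 6.35, 6.90 and 6.88 against 7.15, 5.82 and 6.09 (-0.36 ± 0.35 SE). The partners lay on opposite sides of 0 in number 1, with Krt8 at 0.80 and Krt18 at -0.57, and in number 5, with Krt8 at -1.08 and Krt18 at 0.06. In number 6 both lay below it. Cldn7 lay at 5.93, 5.82 and 6.05 against 4.96, 5.80 and 5.96, so that its difference of -0.36 rests on the GPR15+ sample numbered 1. Without that sample it was -0.06. Cdh17, the cadherin of liver and intestine, lay at 4.54, 4.82 and 4.53 against 4.31, 5.51 and 5.50, below the reference on every array, with the largest difference above 0 of the 32 genes (0.48 ± 0.33 SE). The claudin gene Cldn4 differed by -0.04 and Krt19 by -0.21. The sign of Cldn4 turned under each rescaling of the arrays.

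Transcription factors of the epithelium were close to or below the reference. Cdx1 lay at 7.00, 6.52 and 6.82 against 6.59, 6.37 and 6.32 and was lower in each number (-0.35 ± 0.19 SE). Its paralog Cdx2 lay at 5.76, 5.01 and 4.96 against 5.59, 5.01 and 5.17, where the samples numbered 1 were the high ones in both fractions and the difference was 0.01. Hnf4a lay between 6.64 and 6.86 on all arrays, with a difference of -0.10 ± 0.15 (SE). The ETS family factor Elf3 lay at 5.38, 4.90 and 5.28 against 5.74, 5.25 and 4.94 (0.13 ± 0.24 SE). The median of the 4 was -0.05 and lay above 0, at 0.02, 0.04 and 0.07, after centring, quantile normalization and removal of the trend.

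Of the genes made by both lineages, Phgr1 set the fractions farthest apart relative to its error. Phgr1, a small gut protein rich in proline, histidine and glycine, lay at 7.73, 7.52 and 7.42 in GPR15- and at 7.07, 7.02 and 7.04 in GPR15+ samples. The 3 GPR15+ samples were close together and all lay below the GPR15- samples, at -0.51 ± 0.16 (SE) or 1.43-fold lower (limma adjusted p = 0.773). Lgals4, a galectin of the gut surface, lay at 7.33, 7.32 and 7.63 against 7.86, 7.43 and 7.24 and had no common direction (0.08 ± 0.21 SE). The transmembrane mucin gene Muc13 lay at 6.64, 6.35 and 6.41 against 6.30, 6.14 and 6.37 (-0.20 ± 0.17 SE).

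By title number, 12 of the 32 genes lay below 0 in all 3 numbers (background 23.6%) and 0 lay above 0 in all 3 (background 13.4%). In number 1, 19 of 32 were below 0 (background 53.1%), in number 5, 25 (background 58.1%), and in number 6, 26 (background 57.4%). The medians were -0.11, -0.23 and -0.31. Among the 32, medians of goblet and absorptive genes parted in number 1, where the absorptive median was 0.12 and the goblet median -0.19. In numbers 5 and 6 the absorptive medians were -0.46 and -0.36 and the goblet medians -0.40 and -0.29. With the intensity trend removed they were 0.14, -0.29 and -0.23 for absorptive and -0.16, -0.28 and -0.16 for goblet genes. Medians of keratins and junctions were -0.01, -0.02 and -0.26 in numbers 1, 5 and 6. That of number 5 was 0.13 after quantile normalization and 0.18 with the trend removed. Single genes overlapped in number 1, from -0.55 to 0.50 for absorptive and from -1.19 to 0.57 for goblet genes. The further lists described below did not part there, with medians of 0.10 for other absorptive and 0.09 for other goblet genes. Each number holds 1 array per fraction, so the difference between numbers was not tested. Title number itself, tested with fraction in the fit, called 0 of 32 epithelial genes (limma, background 1.82%). At an unadjusted p under 0.05 it found 1, Cdx2 (background 19.8%, limma adjusted p = 0.168).

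Low values gathered on the same arrays. For 25 of the 32 genes the lowest of the 6 arrays was the GPR15+ sample numbered 5 or 6 (background 49%). Among the sensory receptor genes, 71.9% had their lowest value there, and 72.8% of them lay below 0 with a median difference of -0.11. In the plot of list deviations by array, the median deviation of absorptive genes from their own means was -0.39 and -0.31 on these 2 arrays. For goblet genes it was -0.38 and -0.24, and for keratins and junctions -0.08 and -0.12. For macrophage genes it was -0.19 and -0.27, and for sensory receptor genes -0.22 and -0.12. T cell genes lay above their means there, at 0.13 and 0.16. What part this spread of the arrays had in the epithelial differences was not tested.

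**Figure D3:**
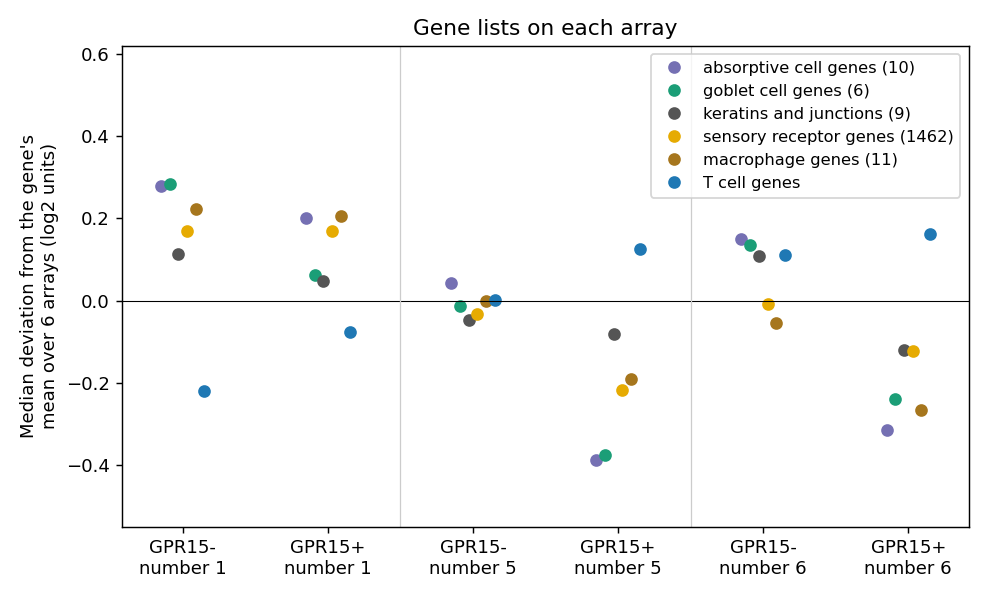
Median deviation of the genes of a list from their own mean over the 6 arrays (y axis, log2 units) on each array (x axis, by title number and fraction). Each of the epithelial lists has its lowest values on the GPR15+ arrays numbered 5 and 6, keratins and junctions by less than absorptive and goblet genes. Sensory receptor and macrophage genes are also below 0 there, and T cell genes above it.

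The difference also went with level over the whole table. Genes with a mean of 6 to 7, the range of 16 of the 32 epithelial genes, had a median difference of -0.11, and 66.5% lay below 0. The 16 had a median of -0.25, with 14 below 0. At 7 to 8 the median of all genes was -0.03 and that of 6 epithelial genes -0.35, and at 5 to 6 the values were -0.13 and -0.13. With the trend against level removed from each array, 23 of 32 epithelial genes lay below 0 (background 50%) and their median was -0.12. After centring each array on its median these values were 24 of 32 (background 49.1%) and -0.14. Medians of goblet and absorptive genes stayed below 0 in both settings, at -0.20 and -0.13 without the trend.

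**Figure D4:**
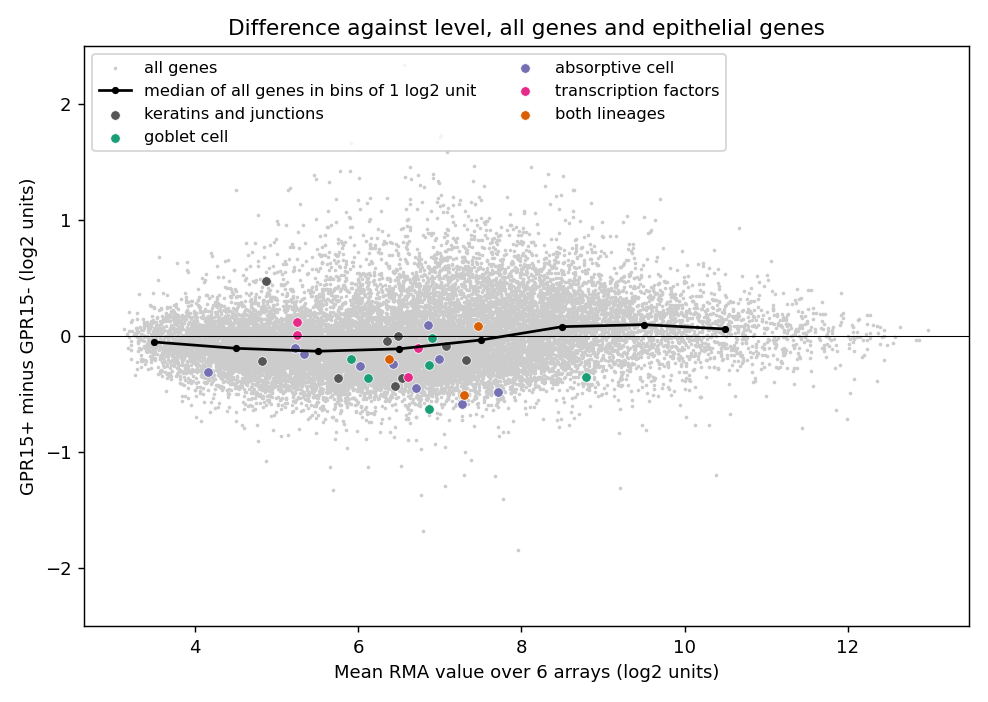
Difference GPR15+ minus GPR15- (y axis, log2 units) against the mean RMA value over 6 arrays (x axis, log2 units). Grey points are all genes, the black line their median in bins of 1 log2 unit, and coloured points the 32 epithelial genes by role. The line lies below 0 at 4 to 8 log2 units, where 31 of the epithelial genes lie, and above it beyond.

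Leaving out single arrays moved the result in size but not in call. With the title number as a block, 4 of the 32 lay lower at an unadjusted p under 0.05 (background 6.23%), and 0 were called. Without the GPR15+ sample numbered 1, 31 of 32 genes lay below 0 and their median was -0.35, against -0.11 for all genes. Of the 32, 10 lay lower at an unadjusted p under 0.05 (background 12.8%). Without the GPR15+ sample numbered 5 the median of the 32 was -0.09, against -0.04 for all genes, with 24 of 32 below 0. Without both arrays numbered 1 the median of the 32 was -0.32 with 26 of 32 below 0 (background 59.3%). There 8 lay lower at an unadjusted p under 0.05 (background 11.4%). Limma called 0 genes after adjustment in each of these fits. With array weights, which gave the GPR15+ sample numbered 6 a weight of 6.57 and that numbered 1 a weight of 0.191 and whose estimate did not converge, limma called 7 of the 32 lower (background 6.13%) and 1 higher (background 5.02%). The 7 were Krt8, Krt18, Spink4, Vil1, Slc26a3, Guca2a and Phgr1, with adjusted p from 0.0280 to 0.0442, and the higher one was Cdh17. At an unadjusted p under 0.05 the weighted fit had 16 of the 32 lower (background 20.7%) and 1 higher (background 12.9%).

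Most further epithelial genes outside the 32 also lay below 0. Over 4 lists of goblet, absorptive, structural and regulatory genes, 59 of 74 lay below 0 (background 59.2%) with a median of -0.16, and limma called 0 of them. At an unadjusted p under 0.05, 5 lay lower (background 3.44%) and 0 higher (background 2.79%). Among other goblet genes 13 of 14 were below 0, with Galnt12, a mucin-type glycosyltransferase, at 0.57 as the exception, Tpsg1 at -0.37 and Sytl2 at -0.18. Sytl2 lay at -1.20 in number 1 but at 0.32 and 0.33 in numbers 5 and 6. Among other absorptive genes 17 of 21 were below 0, with the brush border peptidase Anpep at -0.62, Prap1 at -0.49 and the sulfate transporter Slc26a2 at 0.21. Structural genes gave 20 of 27, with the keratins Krt7 at -0.41 and Krt23 at -0.49 and the desmosomal protein Pkp3 at 0.07. Of other regulators 9 of 12 were, with the homeobox gene Isx at -0.34, Gata6 at -0.24 and Foxa2 at 0.19.

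Markers of other cell types were read beside these values. Summed over the 32 epithelial genes on the linear scale, the arrays gave 3447 to 3941 in GPR15- and 2715 to 3756 in GPR15+ samples. RMA gives every row a positive value, so such sums are not amounts of a cell type. Those of the dim sensory receptor genes were 50197 to 61431 against 42641 to 61398. Of 11 macrophage genes, 8 lay below 0 and 0 stood above the reference on all arrays, and their sum was 731 to 896 against 634 to 923 (Lyz2 at -0.48, Itgam at -0.49, Fcgr1 at -0.19). Of 7 B and plasma cell genes 5 lay below 0, with sums of 458 to 521 against 340 to 421 (Mzb1 at -0.59, Cd79a at -0.36). A list of CD8 and intraepithelial lymphocyte genes had 5 of 6 below 0 and sums of 812 to 876 against 491 to 702, in which the granzyme gene Gzma differed by -1.40 and Fcer1g by -0.50. In the last 2 lists the sums of the fractions did not overlap, but in each they did once 1 gene, chosen after its values were seen, was left out. Without Gzma the CD8 and intraepithelial sums were 449 to 515 against 414 to 477, and without Jchain, the joining chain of secreted antibodies, those of B and plasma cells were 359.6 to 430.0 against 313 to 387. Stromal genes had 8 of 11 below 0 and sums of 1104 to 1288 against 1188 to 1287 (Cdh5 at -0.34, Lum at 0.43, Col1a1 at -0.23). Of 8 T cell genes 2 lay below 0, with Thy1 at 0.46, Cd247 at 0.32, Cd3e at 0.19, Cd4 at 0.14 and Cd3d at 0.02. Of 6 Treg genes 5 lay below 0 with a median of -0.18, among them Ikzf2 at -0.52 and Tnfrsf4 at -0.06, and Ctla4 lay above it at 0.38. Limma called 0 genes in these lists, and their part in the epithelial values was not tested.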

How the data were processed

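Per the labels, RNA of the sorted Tregs was biotin-labelled for a 1-colour array. The authors deposited log2 values made with RMA, per the submitters' processing notes, which give no version. RMA has steps that correct background, equalise the arrays' distributions and summarise probes. The deposited values still differed in spread between arrays, with SDs from 1.63 to 1.87 over all rows. For the genome build and for detection the sources used here name nothing. Of 22142 rows, 19527 had 1 gene symbol in the platform annotation, 0 had several and 2615 had none. Taking the highest-mean row of the 33 genes with several left 19494 genes, and each of the 32 epithelial genes had 1 row.

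All genes were fitted by fraction without a block, using lmFit and eBayes of limma 3.58.1 (R 4.3.3, Benjamini-Hochberg over all genes, threshold 0.05). SEs and intervals are moderated. An exact permutation test of 3 against 3 arrays cannot go below p = 0.1. The fits were tested on simulated data. The 32 genes and all lists were chosen with earlier results of these data known. All 32 are named, in full for the 4 of each role with the smallest p and those above the reference on all arrays. Of every other list the 2 genes with the smallest p and the brightest are named, with Gpr15, Ptprc, Cd4 and Cd3e.

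Deviations from the group means correlated at 0.567, 0.381 and 0.319 between the samples numbered 1, 5 and 6, each over the minimum set for pairing. GPR15- 6 with GPR15+ 5 gave 0.315 and GPR15- 5 with GPR15+ 6 gave 0.213, so numbers 5 and 6 are hardly told apart. The fit without a block was kept as the main one, and a fit with title number as a block was run beside it. No array was identical to another. Alternatives covered scaling, filters, weights, the rows of a gene and left-out arrays. Aligning the arrays on their sensory receptor medians, and sums of 2 marker lists without 1 gene, were added after seeing the data.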

Additional observations from a re-analysis of the deposited data

How the results depend on the processing

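Of the 21 genes that could be run under all 16 settings, 14 kept the sign of their difference. The other 11 did not pass the filter on dim genes, and 6 of them kept it under the remaining 15 settings. With the replicate block, limma called 0 of them, and 4 lay lower at an unadjusted p under 0.05 (background 6.23%), with 0.295 for Vil1 as the lowest adjusted p. The block changed no call.

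Array weights called 8 genes (background 6.13% lower, 5.02% higher), with 16 lower (background 20.7%) and 1 higher (background 12.9%) at an unadjusted p under 0.05 and a regulator median of -0.13. They turned the sign of Cdh1 (0.051), Tff3 (0.21), Fabp2 (0.0036), Elf3 (-0.16), Lgals4 (-0.20), Sytl2 (0.22), Pkp3 (-0.016) and Cd4 (-0.13). Without both arrays numbered 1, 8 lay lower and 1 higher, the median was -0.32, and Fabp2 (0.012), Lgals4 (-0.14), Sytl2 (0.33) and Cd4 (-0.068) turned. Centring gave a regulator median of 0.023 and turned Cldn4 (0.029), Fcgbp (0.050) and Tnfrsf4 (0.0055). Quantile normalization gave 0.042 for regulators, -0.12 in number 5, -0.20 in number 6 and 3 genes with a number effect at an unadjusted p under 0.05. It turned Cldn4 (0.053), Fcgbp (0.065), Krt20 (0.028), Cd3d (-0.0070) and Pkp3 (-0.079). Without the intensity trend the medians were -0.20 for goblet, 0.068 for regulator and -0.081 for shared genes, -0.082 in number 5 and -0.16 in number 6, with 2 genes by number. There Cldn4 (0.077), Fcgbp (0.067), Krt20 (0.025), Cd3d (-0.0026) and Pkp3 (-0.021) turned. Aligning sensory receptor medians, chosen after seeing the data, moved the median of all genes from -0.063 to 0.048 and that of the 32 to -0.10, with -0.19 for goblet, 0.064 for regulator and -0.087 for shared genes. It turned Cdh1 (0.021), Cldn4 (0.070), Fcgbp (0.091), Krt20 (0.0072), Hnf4a (0.0058), Tnfrsf4 (0.047) and Cck (0.022). Without the dimmest genes, 18 of 21 lay below 0, the regulator median was -0.23 and 0 genes had a number effect. Against the 99th percentile of the reference 2 genes stood above it. The causes were not tested.

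Leaving out 1 array at a time, 23 to 31 genes lay below 0, 0 were called, and 1 (without GPR15- 1) to 10 (without GPR15+ 1) lay lower and 0 to 1 higher at an unadjusted p under 0.05. Medians ranged from -0.35 to -0.088 for the 32 and from -0.11 to -0.044 for all genes. By role they ranged from -0.41 to -0.11 for absorptive and from -0.41 to -0.17 for goblet genes. The ranges were -0.14 to 0.075 for regulator, -0.26 to -0.11 for shared and -0.26 to -0.084 for structural genes. Signs turned for Aqp8 (-0.035 to 0.22), Cck (-0.28 to 0.084), Cd3d (-0.13 to 0.21), Cd4 (-0.14 to 0.30), Cdh1 (-0.20 to 0.14), Cdx2 (-0.16 to 0.27), Cldn4 (-0.19 to 0.083), Elf3 (-0.088 to 0.31), Epcam (-0.044 to 0.065), Fabp2 (-0.33 to 0.030), Fcgbp (-0.36 to 0.23), Krt20 (-0.32 to 0.050), Lgals4 (-0.091 to 0.22), Pkp3 (-0.25 to 0.38), Ptprc (-0.049 to 0.28), Sytl2 (-0.36 to 0.16), Tnfrsf4 (-0.19 to 0.015).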

Other observations

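Gene lists of rarer epithelial states were read in the same fit, and limma called 0 genes in them. Among hormone and tuft cell genes 13 of 14 lay below 0 with a median of -0.20, and 2 stood above the sensory receptor reference on all arrays. Il25, the cytokine of tuft cells, differed by -0.36, the tuft cell kinase gene Dclk1 by -0.26 and the hormone gene Cck by -0.09. Genes of epithelium under inflammation gave 3 of 8 below 0 and a median of 0.02, with Saa1 at -0.23, Reg3b at -0.16 and Plet1 at -0.15 below it. Above 0 lay Pigr at 0.21, Duoxa2 at 0.16, Reg3g at 0.06, Nox1 at 0.03 and Lcn2 at 0.02, which were named after their values were seen, as was Reg3b.

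Of 13 stem cell and Wnt pathway genes 9 lay below 0 with a median of -0.16. Znrf3, a ubiquitin ligase that removes Wnt receptors, lay above 0 by 0.82 ± 0.23 (SE) without passing (limma adjusted p = 0.773). The stem cell factor Ascl2 differed by -0.48 and Lrig1, a brake on growth factor receptors, by 0.39.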
